A study of Mus musculus with 11 samples.

Results

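The mouse liver expresses many carboxylesterases, and 10 of them, Ces1c, Ces1d, Ces1e, Ces1f, Ces1g, Ces2a, Ces2c, Ces2e, Ces3a and Ces3b, were followed across wild-type livers and livers of 2 mutant genotypes. The genes were chosen by symbol, through the accession that the array files give for each probe, from a family whose response on these same arrays was already known. Their differences between groups are therefore given as a description, with no p-value, and counts of calls among them stand only beside those of all items. All 10 had at least 1 probe, 13 probes in all, and every one of them passed the filter on dim probes. They are 10 of 22283 items measured, of which 13963 had a gene symbol.

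Carboxylesterases hydrolyse ester, amide and thioester bonds, and most reside in the lumen of the endoplasmic reticulum. In hepatocytes they activate or clear ester drugs and also act on stored triglyceride, cholesteryl esters and other lipids. The mouse genome holds several copies of the genes whose human counterparts are single, so close relatives lie side by side.

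Liver RNA of 11 male mice was profiled, each animal on its own 1-colour Agilent array, in a study of mouse models of hepatoblastoma, the most common liver cancer of early childhood. The groups were 4 wild-type (WT) mice, 3 mice labelled β-catΔEx3, with a β-catenin that lacks the stretch encoded by exon 3 and so escapes degradation, and 4 mice labelled β-catΔEx3:Myc, which by that label also express Myc. The background was a hybrid, B6SJL for the larger part and 129S6 for the smaller, and no mouse was treated. The ages lay between 22 and 40 days, and were given singly only for WT replicate 4 (31 days), β-catΔEx3 replicate 3 (30 days) and β-catΔEx3:Myc replicate 4 (29 days). The design text counts the last group only as expressing c-Myc, and it calls all 11 livers tumour-bearing, those of WT mice included. Whether tumour or surrounding tissue was sampled, and which promoter or recombinase drove the alleles, is not given in the sources used here. Nothing says how the animals are related, so whether they are independent replicates is not known. The spread between arrays holds animal and technical variation together.

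Values are log2 processed signal minus the upper quartile of the same array, so that 0 is the signal at the 75th percentile of the spots. The upper quartile lay between 227 and 354 scanner units, and 49.0 to 53.4% of spots were well above background. WT replicates 1 to 3 were on slide 1, β-catΔEx3 replicates 1 and 2 and β-catΔEx3:Myc replicates 1 and 2 on slide 2, β-catΔEx3:Myc replicate 3 on slide 3, and WT replicate 4, β-catΔEx3 replicate 3 and β-catΔEx3:Myc replicate 4 on slide 4. Slide and genotype were thus partly confounded, and values fitted with slide as a block, or taken within slide 4 from 1 array a group, are given beside the results. Ctnnb1, the β-catenin gene, did not pass the test in either mutant group (log2 fold change -0.17 in both, adjusted p = 0.416 and 0.378, limma), and a change of level is not what the deletion labels describe. Myc rose 10.3-fold in β-catΔEx3:Myc livers (log2 fold change 3.37, adjusted p = 0.00277, limma), and its log2 fold change was 3.97 without WT replicate 1, 5.20 with slide as a block and 5.5 within slide 4. It was 2.83-fold higher in β-catΔEx3 livers without passing the threshold of 0.05 (adjusted p = 0.132). Against β-catΔEx3 it was 3.65-fold higher in β-catΔEx3:Myc, with no overlap of arrays. That difference was not called (adjusted p = 0.395, limma, and 0.251 with slide as a block).

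The upstream sequences of 4 of the genes are shown first, because these genes carry the contrasts described below: Ces3b was far lower in both mutants, Ces2e moderately lower, and Ces2c and Ces1g higher. Each run is the 250 bases before the annotated start in RefSeq (build GRCm38.p6), read 5′ to 3′ on the strand of the gene. They lie at chr8:105083505-105083754 (plus strand) for Ces3b, chr8:104926010-104926259 (plus) for Ces2e, chr8:104846818-104847067 (plus) for Ces2c and chr8:93337210-93337459 (minus) for Ces1g. Capitals mark a TATA box (TATAAA on either strand) or the Hnf1 half-site GTTAAT.
Ces3b: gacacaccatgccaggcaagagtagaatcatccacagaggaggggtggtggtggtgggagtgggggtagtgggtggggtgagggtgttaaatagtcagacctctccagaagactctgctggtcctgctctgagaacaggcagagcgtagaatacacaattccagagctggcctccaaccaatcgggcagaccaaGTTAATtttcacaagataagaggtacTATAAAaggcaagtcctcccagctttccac
Ces2e: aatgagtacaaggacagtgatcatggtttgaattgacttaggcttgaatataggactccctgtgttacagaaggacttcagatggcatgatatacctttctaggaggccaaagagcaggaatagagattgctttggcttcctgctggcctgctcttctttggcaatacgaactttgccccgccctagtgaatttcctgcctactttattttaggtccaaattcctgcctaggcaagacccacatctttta
Ces2c: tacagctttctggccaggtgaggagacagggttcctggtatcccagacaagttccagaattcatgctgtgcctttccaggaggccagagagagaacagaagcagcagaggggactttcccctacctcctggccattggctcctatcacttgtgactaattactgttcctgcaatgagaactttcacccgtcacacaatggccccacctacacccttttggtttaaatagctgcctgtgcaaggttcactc
Ces1g: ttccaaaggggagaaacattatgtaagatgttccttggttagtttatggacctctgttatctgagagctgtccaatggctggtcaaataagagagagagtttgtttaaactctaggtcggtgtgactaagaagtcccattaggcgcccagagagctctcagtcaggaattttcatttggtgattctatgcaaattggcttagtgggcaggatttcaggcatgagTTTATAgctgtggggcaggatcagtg

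Upstream windows were held for 7 of the 10 genes, all but Ces1d, Ces1f and Ces3a. The 6 short motifs below were searched on both strands, and the share of all 32851 mouse upstream windows that hold each is given for comparison. TATAAA (12.4% of windows) was found in Ces3b, at bases -30 to -25 from the start, and on the opposite strand in Ces1g, at -26 to -21. GTTAAT, a half-site of the hepatocyte factor Hnf1 (6.43%), was found in Ces3b at -56 to -51. AGGTCA, the half-site of many nuclear receptors (14.0%), was found in Ces2a at -226 to -221. The Tcf/Lef core CTTTGAT (3.21%), the Myc E-box CACGTG (6.02%) and the antioxidant response core TGACNNNGC (10.2%) were in none of the 7 windows. A match or its absence describes these letters in this stretch and no binding. Among the 21 pairs of windows, identity after global alignment ran from 55.2 to 70.0% of the window with a median of 59.2%. The pair most alike was Ces2a and Ces2c (70.0%), and the longest unbroken shared run, 17 bases, was between Ces2a and Ces2e. The alignments allowed gaps, and no windows of unrelated genes were aligned for comparison. Neither the identities nor the run are therefore read as shared promoter sequence.

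The 10 genes fell into 3 patterns in the mutant livers. Ces3a and Ces3b were 119-fold to 313-fold lower, Ces1c, Ces1d and Ces2e were lower by 1.51-fold to 4.37-fold without overlap with WT, and Ces2c and Ces1g were 3.08-fold to 5.27-fold higher by their brightest probes, with 16.9-fold to 24.0-fold by the other 2 probes of Ces2c. For Ces1e, Ces1f and Ces2a both mutant groups overlapped WT, and for Ces1g β-catΔEx3:Myc did so through replicate 4. In β-catΔEx3 against WT, 7 of the 10 genes did not overlap between groups (2 higher, 5 lower), where 43.7% of all items did not (24.8% higher, 18.8% lower). In β-catΔEx3:Myc against WT, 6 of 10 did not overlap (1 higher, 5 lower), where 42.4% of all items did not (24.9% higher, 17.5% lower). By limma at an adjusted p under 0.05, 6 of 10 were called in the first comparison (2 higher, 4 lower; of all items 37.1%, 21.6% higher and 15.5% lower) and 7 of 10 in the second (2 higher, 5 lower; of all items 42.4%, 25.3% higher and 17.1% lower). With slide as a block 5 of 10 were called in each (8.14 and 8.77% of all items). In β-catΔEx3 the call of Ces2e was lost, and in β-catΔEx3:Myc those of Ces1g, Ces2c and Ces2e, with Ces1f called in addition. The choice of the genes used these contrasts, so nothing is read from the counts. Their median log2 fold change was -0.72 and -0.79, and that of all items 0.10 and 0.14.

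**Figure D1:**
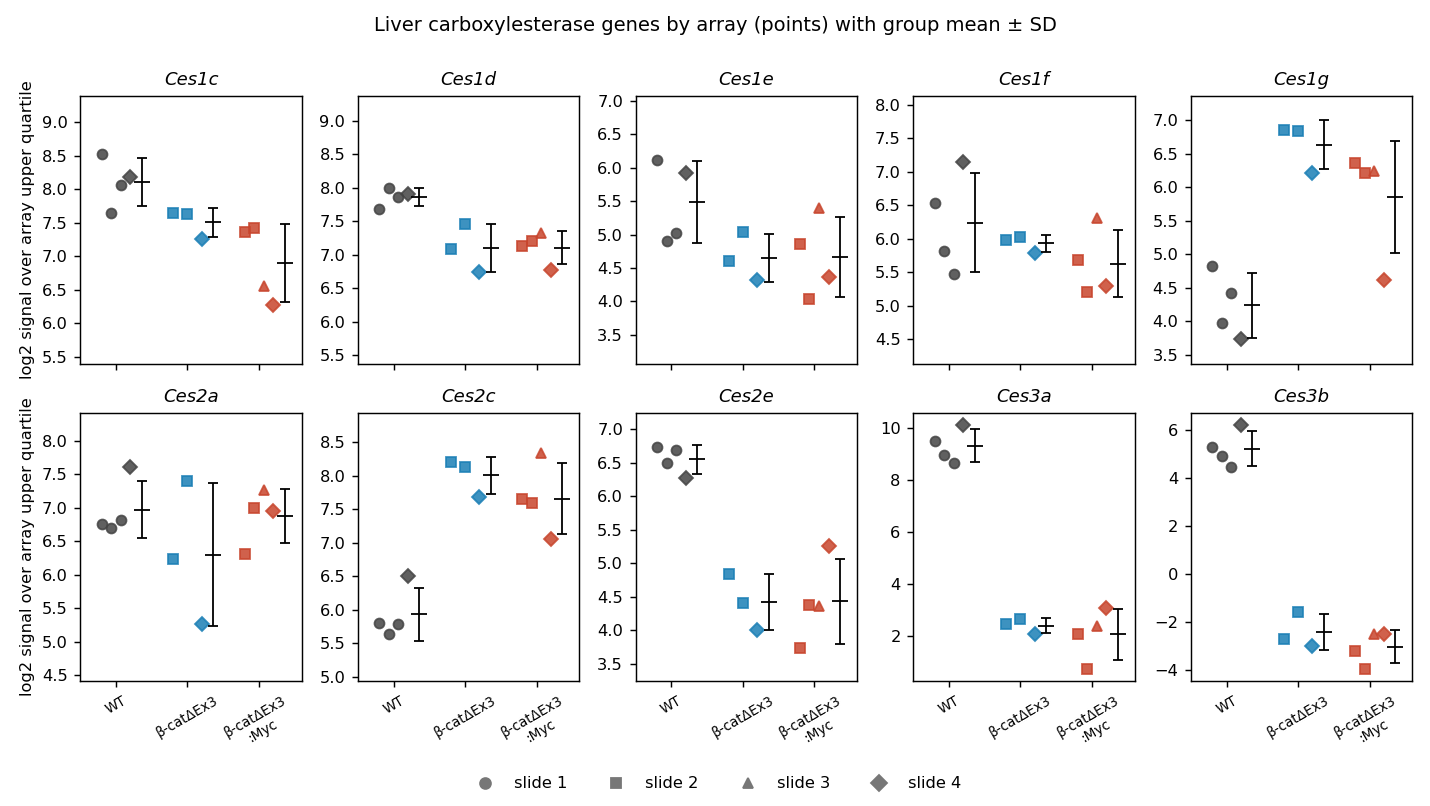
Log2 signal over the array's upper quartile (vertical axis, each panel on its own range of at least 4 units) for the 10 carboxylesterase genes in WT, β-catΔEx3 and β-catΔEx3:Myc livers. Points are arrays, shaped by slide, and the bar beside each group is the mean ± SD (n = 4, 3 and 4); the 7 mutant arrays lie far below the 4 WT arrays for Ces3a and Ces3b and above them for Ces2c.

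Ces3a and Ces3b, neighbours at the end of the second gene cluster, encode liver carboxylesterases of the Ces3 class. On the 4 WT arrays, replicates 1 to 4 in order, Ces3a read 9.47, 8.96, 8.66 and 10.10. On the 3 β-catΔEx3 arrays it read 2.47, 2.64 and 2.09, and on the 4 β-catΔEx3:Myc arrays 2.07, 0.76, 2.39 and 3.07. All 7 mutant arrays lay more than 5 units below the lowest WT array. The group means were 9.30 ± 0.63 (SD, n = 4), 2.40 ± 0.28 (n = 3) and 2.07 ± 0.97 (n = 4), that is 119-fold lower in β-catΔEx3 (log2 fold change -6.89 ± 0.49, SE) and 150-fold lower in β-catΔEx3:Myc (-7.23 ± 0.46). With slide as a block the log2 fold changes were -7.30 and -7.74, and within slide 4 they were -8.0 and -7.03.

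Ces3b read 5.31, 4.94, 4.49 and 6.23 on the WT arrays. It read -2.72, -1.59 and -3.01 in β-catΔEx3 and -3.23, -3.95, -2.50 and -2.51 in β-catΔEx3:Myc. The lowest WT array and the highest mutant array were again more than 5 units apart. Its means of 5.24 ± 0.74 (SD, n = 4), -2.44 ± 0.75 (n = 3) and -3.05 ± 0.69 (n = 4) differed 205-fold in β-catΔEx3 (-7.68 ± 0.49, SE) and 313-fold in β-catΔEx3:Myc (-8.29 ± 0.46). The size of the Ces3b difference moved with the treatment of background, since its mutant signals were dim though well above background on all 7 arrays. After normexp background correction the log2 fold changes were -6.43 and -6.73, with slide as a block -8.59 and -9.38, and within slide 4 -9.23 and -8.74. On WT arrays the probes of both genes were lowest on replicate 3 and highest on replicate 4. Across the 11 arrays their log2 changes from the WT mean differed by at most 1.52, with a median difference of 0.65.

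Ces1c, Ces1d, Ces1e, Ces1f and Ces1g lie in the first gene cluster. Ces1c encodes the esterase that is secreted into mouse plasma, and Ces1d the triacylglycerol hydrolase that mobilises stored lipid for very low density lipoprotein. Ces1c read 8.52, 7.65, 8.06 and 8.18 on the WT arrays, 7.64, 7.63 and 7.26 in β-catΔEx3 and 7.36, 7.42, 6.55 and 6.27 in β-catΔEx3:Myc. Its highest β-catΔEx3 array stood just under the lowest WT array (7.64 against 7.65), and the β-catΔEx3:Myc arrays all lay lower. The log2 fold change was -0.59 ± 0.31 (SE; 1.51-fold lower) in β-catΔEx3 and -1.20 ± 0.28 (2.30-fold lower) in β-catΔEx3:Myc. The blocked values were -1.17 and -1.66, and within slide 4 -0.92 and -1.91.

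Ces1d read 7.68, 8.0, 7.86 and 7.91 on the WT arrays, the narrowest WT spread of the 10 genes (SD 0.13). It read 7.09, 7.46 and 6.75 in β-catΔEx3 and 7.13, 7.20, 7.33 and 6.77 in β-catΔEx3:Myc. No mutant array reached the WT range, and both mutant groups had the same log2 fold change of -0.76 (SE 0.20 and 0.18; 1.70-fold and 1.69-fold lower). The block values were -1.11 and -1.18, and the values within slide 4 -1.15 and -1.14.

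Ces1e encodes egasyn, which holds β-glucuronidase in the endoplasmic reticulum, and Ces1f a triglyceride hydrolase related to Ces1d. Ces1e read 6.11, 4.91, 5.02 and 5.92 in WT, 4.61, 5.03 and 4.32 in β-catΔEx3 and 4.86, 4.03, 5.40 and 4.36 in β-catΔEx3:Myc. Ces1f read 6.54, 5.81, 5.48 and 7.14 in WT, 5.98, 6.02 and 5.79 in β-catΔEx3 and 5.69, 5.21, 6.31 and 5.30 in β-catΔEx3:Myc. For both genes WT replicates 1 and 4 stood above WT replicates 2 and 3, and the mutant arrays overlapped the lower WT pair. The log2 fold changes were -0.84 ± 0.39 and -0.83 ± 0.36 (SE) for Ces1e. They were -0.31 ± 0.38 and -0.61 ± 0.36 for Ces1f, so the difference in β-catΔEx3 was smaller than its own error. With slide as a block, which leans on WT replicate 4, these values became -1.47 and -1.70 for Ces1e and -1.32 and -1.86 for Ces1f. Without WT replicate 4, Ces1f in β-catΔEx3 differed from WT by only -0.01.

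Ces1g encodes the liver esterase known as esterase-x, which acts on lipids. It was the only one of the 5 Ces1 genes here with higher signal in the mutants. It read 4.82, 3.98, 4.42 and 3.73 in WT and 6.85, 6.84 and 6.21 in β-catΔEx3, with no overlap. In β-catΔEx3:Myc it read 6.36, 6.22, 6.25 and 4.61, so that replicates 1 to 3 lay above all WT arrays and replicate 4 fell within the WT range. The log2 fold change was 2.40 ± 0.43 (SE; 5.27-fold higher) in β-catΔEx3 and 1.62 ± 0.39 (3.08-fold higher) in β-catΔEx3:Myc. Its blocked values were 2.13 and 1.22, within slide 4 it was 2.48 and 0.88, and without β-catΔEx3:Myc replicate 4 the second value was 2.04.

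Ces2a, Ces2c and Ces2e belong to the Ces2 class, whose members prefer substrates with a small acyl and a large alcohol group. Ces2a read 6.76, 6.69, 6.82 and 7.60 in WT, 6.23, 7.40 and 5.27 in β-catΔEx3 and 6.31, 6.99, 7.26 and 6.95 in β-catΔEx3:Myc. All groups overlapped, and the β-catΔEx3 arrays spread more widely (SD 1.07, n = 3) than in any other group of these genes. The log2 fold change was -0.67 ± 0.44 (SE) in β-catΔEx3 and -0.10 ± 0.41 in β-catΔEx3:Myc. The latter changed sign without WT replicate 4 (0.12) or β-catΔEx3:Myc replicate 1 (0.09), and the block values were -1.72 and -1.27.

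Ces2c, an acylcarnitine-hydrolysing esterase, had 3 probes. The brightest read 5.80, 5.63, 5.78 and 6.50 in WT, 8.20, 8.13 and 7.68 in β-catΔEx3 and 7.65, 7.59, 8.34 and 7.05 in β-catΔEx3:Myc. Every mutant array lay above every WT array, with a log2 fold change of 2.07 ± 0.31 (SE; 4.21-fold higher) and 1.73 ± 0.28 (3.31-fold higher). WT replicate 4 was the highest of the WT arrays, and against it alone, within slide 4, the differences were 1.18 and 0.55, much as with slide as a block (1.15 and 0.57).

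The other 2 probes of Ces2c gave far larger differences. The second read 3.34, 2.80, 2.46 and 4.55 in WT, 8.10, 7.74 and 7.66 in β-catΔEx3 and 7.45, 7.26, 8.11 and 6.67 in β-catΔEx3:Myc, which is 23.3-fold and 16.9-fold higher. The third gave 24.0-fold and 17.7-fold. These differences were also seen with the probe of Ces2b, a neighbouring gene outside the 10, which read 2.87, 2.41, 2.12 and 4.23 in WT, 7.64, 7.47 and 7.24 in β-catΔEx3 and 7.12, 6.90, 7.77 and 6.28 in β-catΔEx3:Myc. Measured as the log2 change from the WT mean, the second and the third Ces2c probe and the Ces2b probe stayed within 0.11 of one another on all 11 arrays, with median differences of 0.05 to 0.07. The brightest Ces2c probe departed from them by up to 2.70. Whether these probes read the same transcript was not tested, as probe sequences were not used here, so the size of the Ces2c and Ces2b differences is uncertain while their direction was the same on all 4 probes.

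**Figure D2:**
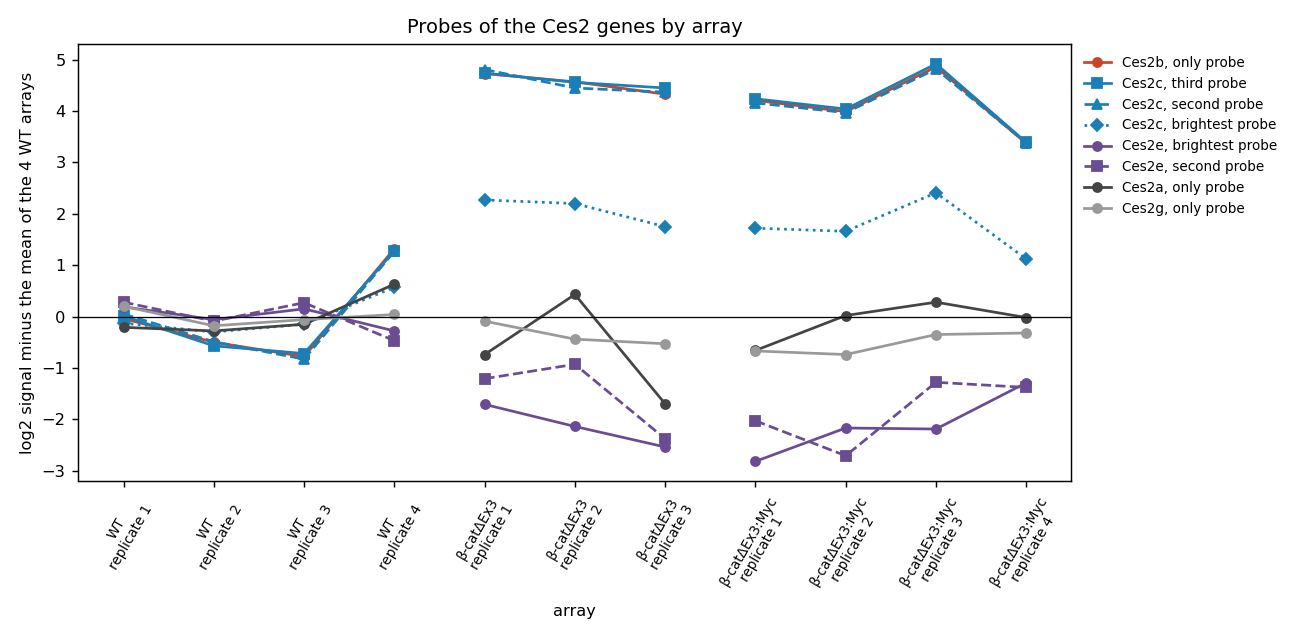
Log2 signal of each Ces2 probe minus its own mean over the 4 WT arrays (vertical axis), by array (horizontal axis), with lines joining the arrays of a group only as a guide. The Ces2b probe and the second and the third Ces2c probe lie on top of one another, the brightest Ces2c probe is about 2 units above WT in β-catΔEx3, and both Ces2e probes lie below WT on every mutant array.

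Ces2e, a further esterase of the Ces2 class, was lower on both of its probes. Its brightest probe read 6.74, 6.50, 6.70 and 6.27 in WT, 4.84, 4.41 and 4.01 in β-catΔEx3 and 3.73, 4.38, 4.36 and 5.26 in β-catΔEx3:Myc, with no overlap. The log2 fold change was -2.13 ± 0.32 (SE; 4.37-fold lower) and -2.12 ± 0.30 (4.35-fold lower). The second, dimmer probe was 2.84-fold and 3.60-fold lower. With slide as a block the brightest probe gave -1.65 and -1.62, and within slide 4 -2.26 and -1.01. Ces2c and Ces2e, separated in the gene order only by the pseudogene Ces2d-ps and a few other listed genes, thus stood on opposite sides of WT on all 7 mutant arrays.

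Between the mutant groups none of the 10 genes separated. Log2 fold changes of β-catΔEx3:Myc against β-catΔEx3 ran from -0.77 (Ces1g) to 0.58 (Ces2a), and the arrays of the groups overlapped for all 10, where 8.10% of all items did not (3.90% higher, 4.19% lower). None of the 10 was called by limma, where 0.251% of all items were (0.108% higher and 0.144% lower; 56 of 22283, and 2295 at an unadjusted p under 0.05), so few differences of any gene passed in this comparison. The 56 ranged from 10 without β-catΔEx3 replicate 3 to 180 without β-catΔEx3:Myc replicate 3. Myc itself was not among the 56 (log2 fold change 1.87, adjusted p = 0.395, limma). Within slide 2 and within slide 4 the Ces1g difference was -0.56 and -1.60. The 2 slides differed in sign for 6 of the 10 genes: Ces3a (-1.14 and 0.97), Ces3b (-1.43 and 0.50), Ces2a (-0.17 and 1.68), Ces2e (-0.57 and 1.24), Ces1e (-0.37 and 0.04) and Ces1d (-0.11 and 0.01).

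Single arrays stood out within groups. β-catΔEx3 replicate 3 was the lowest of its 3 arrays for all 10 genes, whether the gene was higher or lower than in WT, while its upper quartile (286.1) and share of spots above background (50.4%) were within the range of the other arrays. WT replicate 4 was the highest WT array for 5 of the 10 (Ces1f, Ces2a, Ces2c, Ces3a and Ces3b) and the lowest for 2 (Ces1g and Ces2e). β-catΔEx3:Myc replicate 3 was the highest of its 4 arrays for 6 of the 10. The first 2 of these arrays are on slide 4, and slide, age and animal cannot be told apart there.

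The summed signal of several cell type marker lists differed between the genotypes too. In whole tissue, fewer cells of a type and less RNA per cell cannot be told apart. The summed signal of 6 hepatocyte markers (Alb, Ttr, Apoa1, Serpina1c, Ambp and Fgb) ran from 6277 to 7888 times the upper quartile in WT, from 3606 to 4224 in β-catΔEx3 and from 3205 to 4996 in β-catΔEx3:Myc, so the labelled tissue carried its defining markers in all groups at a lower sum in the mutants. The 5 Kupffer cell markers summed to 144 to 233 in WT, 9.32 to 35.5 in β-catΔEx3 and 9.96 to 43.8 in β-catΔEx3:Myc. All 5 (Clec4f, Cd5l, Vsig4, Adgre1 and Marco) were called lower in both comparisons (limma, adjusted p = 0.000295 to 0.019), beside 15.5 and 17.1% of all items. None of these calls held with slide as a block (adjusted p = 0.0643 to 0.291), and that of Marco in β-catΔEx3:Myc also ended without WT replicate 4 (0.0507), β-catΔEx3:Myc replicate 2 (0.0557) or replicate 3 (0.0545). The 5 endothelial markers summed to 103 to 121, 50.1 to 64.1 and 26.0 to 41.2, and the 5 stellate cell markers to 66.3 to 113, 49.4 to 64.3 and 23.0 to 42.5. Without the block, 2 of 5 markers of each list were called lower in β-catΔEx3 and 3 of 5 in β-catΔEx3:Myc. Of the 6 hepatocyte markers 5 and 4 were called lower. With slide as a block the hepatocyte calls held for Apoa1 alone (limma, adjusted p = 0.0117 and 0.0216). The 5 erythroid markers summed to 182 to 529, 11.3 to 48.3 and 11.4 to 370, and the 4 measured neutrophil markers to 5.41 to 10, 0.884 to 3.90 and 3.92 to 71.9, with wide spread in the last group. The 5 bile duct markers summed to 1.52 to 3.87, 2.24 to 2.45 and 1.04 to 1.25. The T, B or NK cell markers summed to 5.71 to 8.27, 6.30 to 7.66 and 5.17 to 9.45, with Cd79a not above background on any array. Among them Ms4a1 was at least 9.06-fold and at least 6.73-fold lower. It was well above background on no mutant array and passed the filter through the WT arrays alone. Only a lower value could thus be seen for Ms4a1, which is given without a p-value. Cd3d was 5.91-fold and 5.21-fold lower (adjusted p = 0.0034 and 0.00263, limma), calls lost with slide as a block (0.345 and 0.385). Cd3e was called 1.83-fold higher in β-catΔEx3:Myc (0.0473), also lost with the block (0.509) and on leaving out any array but β-catΔEx3 replicate 1 or 2 or β-catΔEx3:Myc replicate 4 (0.0551 to 0.121). The part of these shifts in the carboxylesterase values was not tested. Carboxylesterases are also made in intestine, and of 5 intestinal markers Cdx2 and Muc2 were not well above background on any array. All 5 (with Vil1, Fabp2 and Lgals4) summed to 97.4 to 125 in WT and 11.8 to 56.3 over the mutant arrays. Of 5 pancreatic acinar markers, 2 passed the filter, and all 5 summed to 1.00 to 2.29 over all arrays.

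The family's other members were read from a list of 9 further genes, of which 7 had a probe and 5 passed the filter. In β-catΔEx3 against WT, 2 rose and 1 fell, and in β-catΔEx3:Myc against WT 2 rose and 2 fell, with a median log2 fold change of 0.54 and 0.41 over the 5. Called were thus 3 and 4 of 5, beside 37.1 and 42.4% of all items. With slide as a block 2 and 2 were called, beside 8.14 and 8.77% of all items. Those 2 were Ces2b and Ces4a, both with limits given below, and nothing is read from the counts. Ces2b was 23.3-fold higher in β-catΔEx3 (log2 fold change 4.54 ± 0.47, SE) and 17.3-fold higher in β-catΔEx3:Myc (4.11 ± 0.44). In the blocked fit these were 2.87 and 2.19, and within slide 4 3.01 and 2.05. Its probe stayed within 0.11 of 2 probes of Ces2c on all arrays, so it may not be a separate reading. Like the genes chosen for their known response, Ces2b is given without a p-value.

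Ces4a, the last gene of the second cluster, read -1.73, -3.36, -2.91 and -0.43 in WT and was not well above background on any of the 7 mutant arrays. It was at least 7.58-fold lower in β-catΔEx3 and at least 5.66-fold lower in β-catΔEx3:Myc. For this bound, a mutant array took the dimmest signal still scored well above background there, or the Ces4a signal where that was higher. Ces4a passed the filter on dim probes through the WT arrays alone, so only a lower value could be seen in the mutants. Its difference is therefore given without a p-value. Ces3a, Ces3b and Ces4a, which follow each other at the end of the cluster with 1 other listed gene between Ces3b and Ces4a, were thus all lower in both mutants.

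Ces1a, at the opposite end of the family and dim on all arrays, read -3.58, -4.04, -4.01 and -3.47 in WT, -2.77, -2.83 and -2.30 in β-catΔEx3 and -2.22, -2.55, -1.83 and -2.60 in β-catΔEx3:Myc. It rose 2.21-fold and 2.78-fold (adjusted p = 0.00438 and 0.000571, limma), calls that were lost with slide as a block (adjusted p = 0.135 and 0.0902). Ces1b, its neighbour, had log2 fold changes of 0.54 ± 0.38 and 0.41 ± 0.35 and was not called, and with slide as a block the values turned to -0.09 and -0.36. Ces2g fell in β-catΔEx3:Myc only slightly (-0.52 ± 0.16; adjusted p = 0.0242), and the call ended with slide as a block (adjusted p = 0.271) or without WT replicate 1 (0.0686), WT replicate 4 (0.0511), β-catΔEx3:Myc replicate 1 (0.0641) or replicate 2 (0.0694). In β-catΔEx3 its value was -0.36 ± 0.17 (adjusted p = 0.135). Ces2f and Ces5a were not well above background on any array, and no probe was matched to Ces1h or Ces2h.

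**Figure D3:**
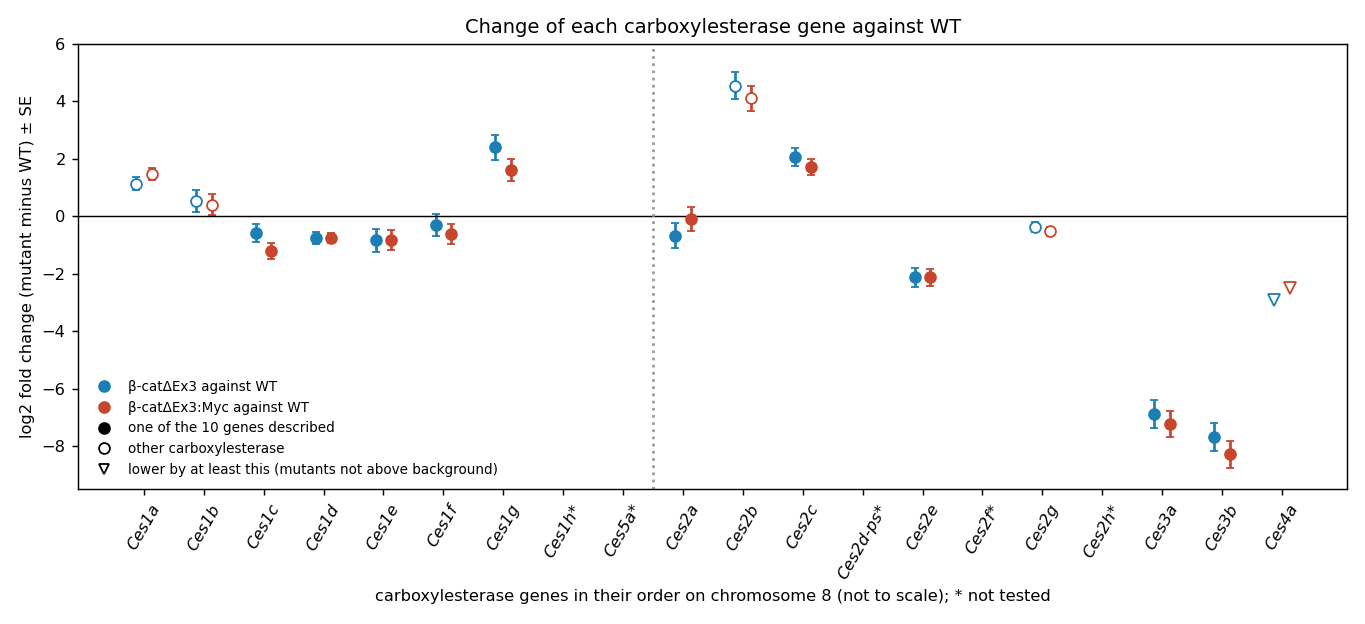
Log2 fold change ± SE against WT (vertical axis) of the carboxylesterase genes, placed in their order along chromosome 8 with equal spacing (horizontal axis); the dotted line divides the first cluster of 9 genes from the second of 11. Filled points are the 10 genes described, open points the other carboxylesterases, and triangles the bound for Ces4a; values above and below 0 occur in both clusters, and the lowest values lie at Ces3a and Ces3b.

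In gene order the family forms a pair of clusters on chromosome 8, with 158 other listed genes between them. The first, from Ces1a to Ces5a, held the higher Ces1a, Ces1b, which was not called, Ces1c to Ces1f, whose fitted values were all below 0, and the higher Ces1g. Of these, Ces1e and Ces1f overlapped WT in both mutants and Ces1g in β-catΔEx3:Myc, and the Ces1a calls were lost with slide as a block. The second ran from Ces2a, which overlapped WT, through the higher Ces2b and Ces2c to the lower Ces2e, Ces3a, Ces3b and Ces4a. Ces2g, between Ces2e and Ces3a, was only slightly lower.

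Of 22 other ester and lipid hydrolases listed, 6 rose and 4 fell in β-catΔEx3, where 21.6% of all items rose and 15.5% fell. In β-catΔEx3:Myc 6 rose and 5 fell, where 25.3% of all items rose and 17.1% fell. The median log2 fold change of the list was -0.08 and -0.03. The share called, 10 and 11 of 22, stands beside 37.1 and 42.4% of all items, so nothing is read from these counts. With slide as a block 3 and 2 were called, beside 8.14 and 8.77% of all items. The lipase Pnpla3 fell in both (log2 fold change -5.21 ± 0.61 and -4.76 ± 0.57, SE; adjusted p = 0.000211 and 0.000155, limma), although only 1 of 3 and 2 of 4 mutant arrays were well above background. Its blocked values were -3.51 and -2.89, the latter no longer called (adjusted p = 0.058). Lipc, hepatic lipase, fell (log2 fold change -2.77 and -1.63; adjusted p = 2.01e-05 and 0.000193). Mgll, monoglyceride lipase, fell too (-2.07 and -2.59; adjusted p = 0.000851 and 0.000123). Pnpla2, the adipose triglyceride lipase that starts triglyceride breakdown, rose by 2.23 and 2.51 (adjusted p = 0.000721 and 0.000179), a call lost with slide as a block (adjusted p = 0.0796 and 0.0715).

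Among 14 genes of transcription factors known to act on liver esterase or lipid genes, 3 rose and 5 fell in β-catΔEx3 and 2 rose and 5 fell in β-catΔEx3:Myc (medians -0.19 and -0.25), that is 8 and 7 of 14 called beside 37.1 and 42.4% of all items. The 8 calls in β-catΔEx3 shrank to 2 without β-catΔEx3 replicate 1, 3 without replicate 3, 4 without WT replicate 1 or WT replicate 3, and 5 on leaving out any of the WT replicates 2 and 4, replicate 2 of β-catΔEx3 and replicate 2 of β-catΔEx3:Myc. With slide as a block 1 and 2 were called, beside 8.14 and 8.77% of all items. Nr1i2, the xenobiotic receptor PXR, rose by 0.76 ± 0.21 and 0.90 ± 0.19 (SE; adjusted p = 0.0154 and 0.00368, limma). Both calls were lost with slide as a block (adjusted p = 0.268 and 0.157), and the first also without β-catΔEx3 replicate 1 (0.0657). Nr1h4, the bile acid receptor, had -0.60 and -1.16 (adjusted p = 0.0183 and 0.000308), the first not called without β-catΔEx3 replicate 1 (0.0736) or replicate 3 (0.0548) or with slide as a block (0.158). Nr3c1, the glucocorticoid receptor, fell (-0.77 and -0.82; adjusted p = 0.00321 and 0.00124), and the block moved both just past the threshold (0.0539 and 0.0531). Ppara, the fatty acid receptor, fell by 0.97 in β-catΔEx3:Myc (adjusted p = 0.000419; 0.052 in the blocked fit). In β-catΔEx3 its value was -0.42 (adjusted p = 0.0468), a call lost on leaving out any array but WT replicate 2 (adjusted p = 0.054 to 0.129). The call of Rxra in β-catΔEx3 (0.87, adjusted p = 0.0255) rested on the choice of probe, since the mean of its probes gave -0.23, and it was lost on leaving out 1 of the WT replicates 1 and 2 or of the β-catΔEx3 replicates 1 and 3 (adjusted p = 0.059 to 0.10).

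Of 15 genes of triglyceride storage and export, 6 rose and 2 fell in β-catΔEx3 and 4 rose and 4 fell in β-catΔEx3:Myc (medians 0.07 and -0.08). Called were thus 8 and 8 of 15, beside 37.1 and 42.4% of all items. With slide as a block 2 and 3 were called, beside 8.14 and 8.77% of all items. Cidec, which enlarges lipid droplets, rose 16.4-fold and 14.1-fold (log2 fold change 4.04 ± 0.42 and 3.81 ± 0.39, SE; adjusted p = 0.000112 and 6.70e-05, limma). Fitm2, which acts in droplet formation, rose 2.90-fold and 2.33-fold (adjusted p = 0.000182 and 0.000283). Dgat1, which completes triglyceride synthesis, rose 2.85-fold and 2.57-fold (adjusted p = 0.00174 and 0.00154), both lost with slide as a block (0.128 and 0.185). G0s2, an inhibitor of Pnpla2, and Lpin1, a phosphatidate phosphatase, were called lower in β-catΔEx3:Myc (-2.03 and -1.61; adjusted p = 0.0465 and 0.031). Either call was lost with slide as a block (0.734 and 0.53). That of G0s2 was also lost on leaving out any array but β-catΔEx3 replicate 1 or 2 or β-catΔEx3:Myc replicate 4 (adjusted p = 0.0524 to 0.125). That of Lpin1 was lost without WT replicate 2 or 3 or β-catΔEx3:Myc replicate 1, 3 or 4 (0.052 to 0.087). No gene of the 3 lists was called between the mutant groups, though without β-catΔEx3 replicate 1 a hydrolase and a triglyceride gene (1 each) were. With all arrays, Ephx1, Hnf4a and Dgat2, the brightest of each list, had log2 fold changes of -0.28, -0.00 and -0.38 between the mutants (adjusted p = 0.793, 1.00 and 0.427). Larger differences included Lipc (1.13, adjusted p = 0.0631, limma) and Gpam (-1.01, adjusted p = 0.18). The mutant arrays did not overlap for 2 of 22, 3 of 14 and 2 of 15 genes of the lists, beside 8.10% of all items.

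**Figure D4:**
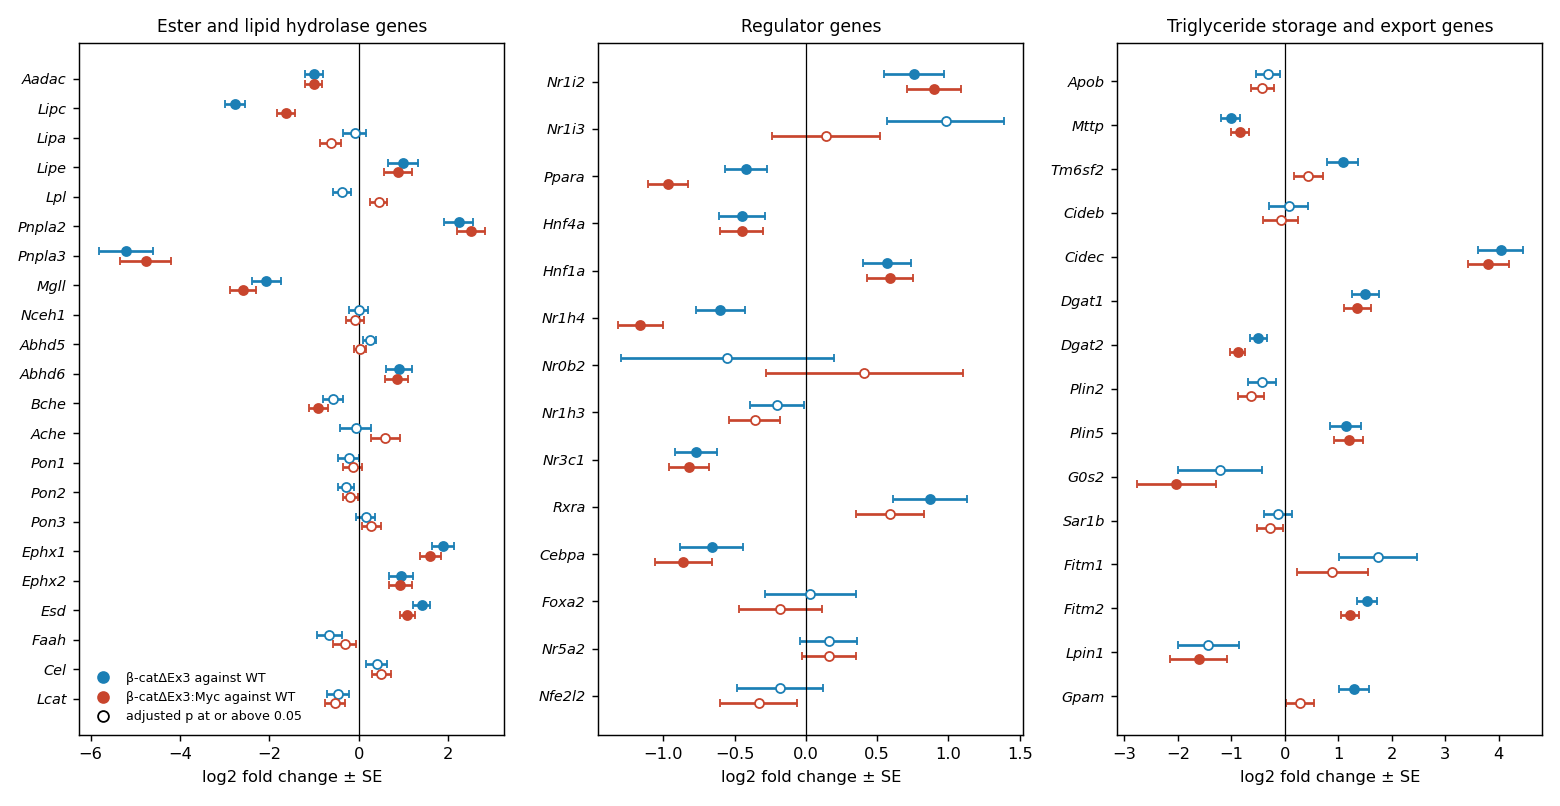
Log2 fold change ± SE against WT (horizontal axis, a different range in each panel) of 22 ester and lipid hydrolase, 14 regulator and 15 triglyceride storage and export genes (vertical axis). Filled points passed an adjusted p under 0.05 and open points did not; Pnpla3 has the lowest values of the first panel and Cidec the highest of the third.

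The average of the 10 profiles, each centred on its own mean over the 11 arrays, lay between 0.78 and 1.43 on the WT arrays, between -0.89 and -0.13 in β-catΔEx3 and between -0.94 and -0.36 in β-catΔEx3:Myc. Ces3a and Ces3b weigh most in it. The 5 other named genes nearest to this average, by root mean square log2 difference over the 11 arrays, were Tle2 (0.186), Irf2 (0.224), Bmp4 (0.228), Ugt2a3 (0.234) and Gm8883 (0.235). Tle2, which encodes a corepressor, had group means of 0.67 ± 0.35 (SD, n = 4), -1.27 ± 0.51 (n = 3) and -1.35 ± 0.15 (n = 4). Ugt2a3, a glucuronosyltransferase of drug metabolism, had means of 4.83 ± 0.45, 3.53 ± 0.20 and 3.22 ± 0.41. The likeness is one of profile over these arrays, chosen from all named genes.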

How the data were processed

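Per the file headers, the authors scanned 1-colour Agilent 8x60K arrays with Feature Extraction 10.7.1.1. The deposited scanner files hold processed intensity, background-subtracted and linear, with median foreground and background intensity. A matrix of log2 values was deposited by the authors as well, each column with a median of 4.51. Aligners and builds do not apply to these values, and the probes were named through a RefSeq table.

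Here, outlier spots (137 to 209 per array) were left out, log2 processed intensity was set against each array's upper quartile over 59305 spots, and spots were averaged per probe. Kept were the 29697 of 55681 probes that at least 3 arrays scored well above background, and the brightest probe stood for a gene. The 3 group means were estimated over the 11 arrays together in limma 3.58.1 (R 4.3.3), 2-sided, with Benjamini-Hochberg adjustment over 22283 items at 0.05; it was tested on simulated data. The array number limits the precision. With the upper quartile over probes detected on all arrays, the median of all items moved by -0.18 (β-catΔEx3) and -0.15 (β-catΔEx3:Myc), and called items split into 3412 higher and 4664 lower, and 4427 and 4748, in place of 4803 and 3463, and 5637 and 3814.

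The genes and the lists were chosen with earlier results of these data known. The adjusted p-values printed for genes of the lists therefore describe these arrays and are no independent test. Named were all carboxylesterases, from each list and comparison the called genes that changed most, up to 3 (or the list's brightest gene where none was called), Ctnnb1 and Myc, and the 5 genes nearest the average profile. The alternatives were background correction, scaling, the authors' matrix, the dim-probe filter, the mean of probes, slide as a block, leaving out each array and, added after seeing the data, the other probes of Ces2c and Ces2e.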

Additional observations from a re-analysis of the deposited data

Results flagged for a closer look

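Among 20 groups of 4 arrays (10 genes in the WT and β-catΔEx3:Myc groups), a single array stood far from the other 3 in 2, beyond a gap of 0.829 of the group's range. Chance alone marks about 1 in 20 of independent groups of normally distributed values. The groups here are genes read on the same arrays, so that rate need not hold for them. Ces1g read 4.61 on β-catΔEx3:Myc replicate 4, where the others read 6.22 to 6.36. Ces2a read 7.60 on WT replicate 4, where the others read 6.69 to 6.82. Both arrays are on slide 4.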

How the results depend on the processing

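Each result was recomputed under quantile normalization, the upper quartile over probes detected on all arrays, normexp background correction (on median spot signal), the authors' deposited matrix, other filters on dim probes, the mean of a gene's probes, slide as a fixed or random block, and without each array. No called value of a carboxylesterase changed sign, while the call of Rxra in β-catΔEx3 (0.87) turned to -0.23 with the mean of its probes. Of 609 values of single carboxylesterases, 580 moved by less than the spread between replicates and 29 by more. Most of the 29 were with slide as a fixed block. That setting moved every one of the 10 genes but Ces1g and Ces3a by more than this spread, in both comparisons with WT. Slide as a fixed block called 1813, 1954 and 178 items (main 8266, 9451 and 56) in β-catΔEx3 and in β-catΔEx3:Myc, each against WT, and between the mutants. In the comparisons with WT it called 3 and 2 hydrolases, 1 and 2 regulators and 2 and 3 triglyceride genes, 2 of the other carboxylesterases in β-catΔEx3:Myc, and put the median of the 10 carboxylesterases at -1.39 and -1.64. Regulators called in β-catΔEx3 were 5 with the upper quartile over detected probes and 5 without a filter. Between the mutants 1 hydrolase was called with normexp, and 35 items with the upper quartile over detected probes, 108 with probes above background on all arrays of a group and 105 with slide as a random block. No paired analysis was possible because the replicate numbers are not from the labels and name no shared animal or litter. The cause of these shifts was not tested.

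Leaving out single arrays gave, for these 3 comparisons in order, called items of 6030 to 8399, 7779 to 9834 and 10 to 180, called carboxylesterases among the 10 of 6 to 7, 7 to 8 and 0 to 0, the other carboxylesterases of 3 to 3, 3 to 5 and 0 to 0. For the lists it gave hydrolases of 7 to 11, 9 to 13 and 0 to 1, regulators of 2 to 6, 6 to 8 and 0 to 0, triglyceride genes of 6 to 8, 6 to 9 and 0 to 1. The median log2 fold change of the 10 genes ran over -0.99 to -0.53, -0.96 to -0.69 and -0.47 to -0.10.

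Signal over background limits Pnpla3 and Ces4a, which were not well above background on all mutant arrays, and the dim Ces1a and, in the mutants, Ces3b, which were above it on all 11 arrays.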
